A study of Mus with 6 samples.

Results

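Immunoglobulin genes are described here in RNA from pancreatic tumors grown in obese and in lean mice. The group was given as 10 genes by Ensembl ID: the heavy-chain constant genes Ighm, Ighd, Ighg1, Ighg2b, Ighg2c, Ighg3 and Igha, the kappa light-chain constant gene Igkc, and Jchain and Mzb1, which serve antibody secretion. The count table lists 6 of them among its 15646 genes, namely Ighm (ENSMUSG00000076617), Ighd (ENSMUSG00000104213), Ighg1 (ENSMUSG00000076614), Igha (ENSMUSG00000095079), Igkc (ENSMUSG00000076609) and Jchain (ENSMUSG00000067149). The other 4, Ighg2b, Ighg2c, Ighg3 and Mzb1, have no entry there and were not analysed here. The members had been selected on the obese against lean difference in this same table, so their values in that comparison are a description, without p-values.

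All tumors came from KPC1199, a mouse pancreatic ductal adenocarcinoma line placed into the pancreas. The 3 obese hosts' libraries (obese 1, 3 and 4) came from leptin-deficient ob/ob mice, and the 3 lean libraries (lean 1, 2 and 3) from wild-type mice. Obesity and the absence of leptin therefore cannot be told apart, and a single tumor line was used. The sources used here do not give the strain, sex or age of the mice, the time after implantation, or whether each library was a separate mouse.

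An antibody is built from heavy and light chains, and the constant gene joined to the heavy chain sets its class. A mature B cell starts with the mu and delta genes (Ighm and Ighd) and can switch by DNA recombination to a downstream gamma gene, for IgG, or to alpha, for IgA. Plasma cells, the secreting end stage of the lineage, carry very large amounts of these transcripts, and the joining chain encoded by Jchain links IgM and IgA into polymers.

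By the RefSeq annotation of GRCm38.p6, looked up by symbol, the heavy-chain constant genes lie in a row on chromosome 12. Ighm spans chr12:113418826-113422730, and 2501 bases separate it from Ighd at chr12:113407535-113416324. Then follow Ighg3, which the table does not list, Ighg1 at chr12:113326541-113330523, the unlisted Ighg2b and Ighg2c, and Igha at chr12:113256204-113260236. Igkc lies apart at chr6:70726435-70726754, and Jchain at chr5:88519809-88527897. RefSeq classes Jchain as a protein-coding gene and the others as constant regions. The gamma genes resemble one another in sequence, and the sources used here do not say how reads fitting several of them were counted, so the Ighg1 counts are uncertain in that respect.

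Library totals ran from 7122533 to 8521244 counts for lean and from 7791756 to 8419274 for obese tumors. A count of 0 in a library allowed a level of up to 0.352 to 0.426 CPM (counts scaled to library size, with TMM factors), the level of 3 counts. Intervals and such limits cover counting error only. Across the 14348 genes tested with edgeR's quasi-likelihood test, 2991 passed an adjusted p of 0.05, of which 49.3% were higher in obese hosts (60.6% with libraries scaled by total counts only). The count table carries no symbols, so markers of plasma cells, B cells or other cell types could not be looked up, and the presence of plasma cells was not tested.

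Summed over the 6 listed genes, immunoglobulin transcripts made up at most 0.00689% of the counts of a tumor and were higher in each obese than in each lean library. Lean 1 held 23 counts of them, lean 2 held 57 and lean 3 held 256, against 580, 526 and 559 in obese 1, 3 and 4. The summed level was 2.73, 8.09 and 32.04 CPM in lean 1, 2 and 3 and 68.0, 64.4 and 67.5 CPM in obese 1, 3 and 4. The obese libraries thus lay within 1.06-fold of each other, whereas lean 3 stood 11.7-fold above lean 1. Mean summed levels of 14.3 ± 15.6 CPM (lean) and 66.6 ± 1.97 CPM (obese; SD, n = 3 each) gave a ratio of 4.66. This ratio depended on which lean tumor served as reference: the obese mean was 24.4 times the level of lean 1, 8.23 times that of lean 2 and 2.08 times that of lean 3, and without lean 3 the ratio of means was 12.3. Lean 1, the library with the fewest immunoglobulin counts, had the largest total, 8521244 counts. Whether technical differences between the libraries contributed to these levels was not tested. In such bulk tissue, fewer cells of a type and less RNA per cell cannot be told apart.

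**Figure D1:**
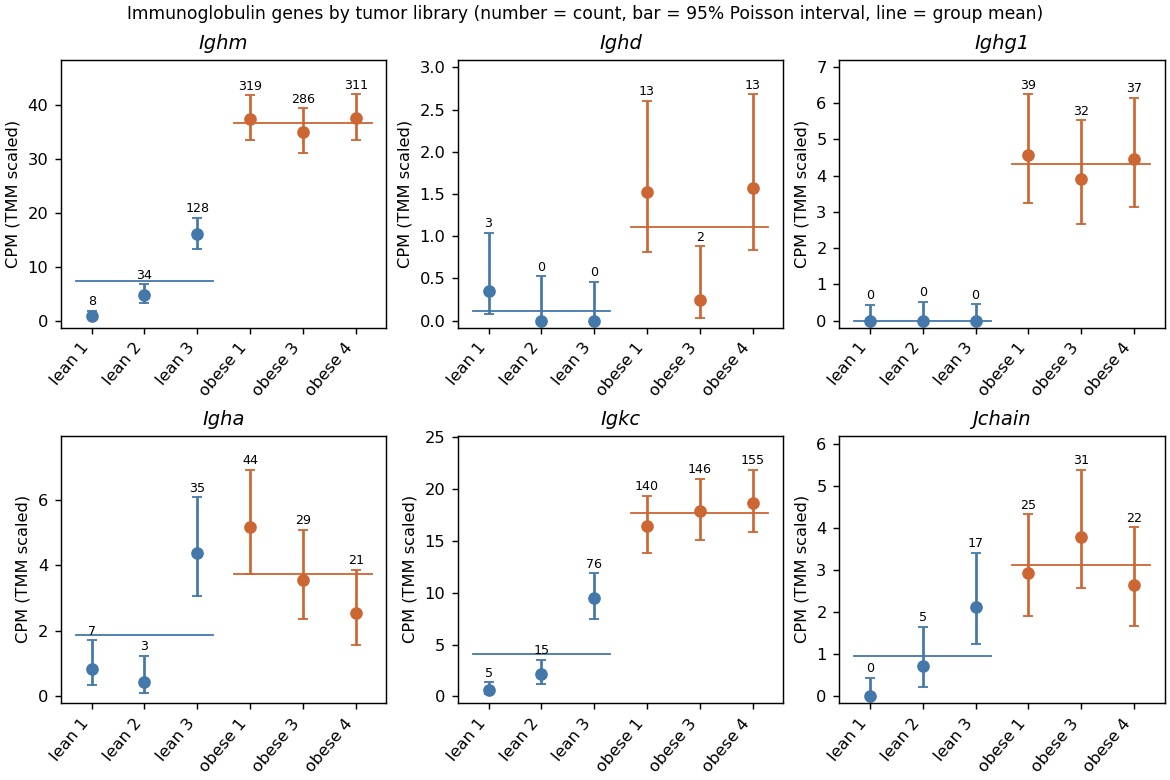
Level of each listed gene (CPM) in the 3 lean and 3 obese libraries, with 95% Poisson intervals, the count above each point and the group mean as a line. Obese libraries sit close together for Ighm, Igkc and Ighg1; lean 3 lies above lean 1 and 2 for Ighm, Igkc, Jchain and Igha, and Ighg1 is 0 in each lean library.

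Ighm, the constant gene of IgM and of the B cell receptor before switching, was counted 8, 34 and 128 times in lean 1, 2 and 3. The obese libraries 1, 3 and 4 held 319, 286 and 311 counts of it. In CPM this was 0.9497, 4.83 and 16.0 in the lean and 37.4, 35.0 and 37.5 in the obese tumors. The groups did not overlap, and the 3 lean libraries differed from one another by more than counting error, with 95% Poisson intervals of 0.41 to 1.87, 3.34 to 6.75 and 13.4 to 19.1 CPM. The intervals of the obese libraries overlapped (31.1 to 41.9 CPM in all). The lean mean was 7.27 ± 7.82 CPM and the obese mean 36.6 ± 1.43 CPM (SD, n = 3 each), and the fitted log2 fold change was 2.33 (SE 0.57). On summed counts the obese level was 13.5 times that of lean 1 and 2 together and 2.29 times that of lean 3.

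Ighd, the constant gene of IgD on naive B cells, was close to the limit of detection. Lean 1, 2 and 3 held 3, 0 and 0 counts, and obese 1, 3 and 4 held 13, 2 and 13, or 1.52, 0.245 and 1.57 CPM. Obese 3, at 0.245 CPM, lay below lean 1, at 0.356 CPM, so the groups overlapped. The 28 counts in obese against 3 in lean libraries amounted to an 8.76-fold higher level, for which counting error alone allows 2.71 to 45.03 (95%). Ighd was the listed member that did not pass edgeR's filter on low counts and therefore has no fitted value.

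Ighg1, the constant gene of IgG1, had 0 counts in lean 1, 2 and 3. Obese 1, 3 and 4 held 39, 32 and 37 counts, or 4.57, 3.92 and 4.47 CPM. The obese tumors thus had similar low levels and the lean tumors none detected, with a mean of 4.32 ± 0.353 CPM (SD, n = 3) against a lean limit of 0.128 CPM, the level of 3 counts over the 3 libraries, against which the obese level was at least 33.8-fold higher with the obese counts taken as exact. With counting error on both sides, the exact 95% interval of the ratio starts at 27.0-fold. Lean 3 also held 0 counts, although it had 128 of Ighm and 76 of Igkc. Ighg1 passed the filter on low counts through the obese libraries alone.

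Igha, the constant gene of IgA, the class secreted at mucosal surfaces, overlapped between the groups. It was counted 7, 3 and 35 times in lean 1, 2 and 3 and 44, 29 and 21 times in obese 1, 3 and 4, which is 0.831, 0.426 and 4.38 CPM against 5.16, 3.55 and 2.53 CPM. Lean 3 lay inside the obese range, above obese 3 and 4. The lean mean was 1.88 ± 2.18 CPM and the obese mean 3.75 ± 1.32 CPM (SD, n = 3 each), with a fitted log2 fold change of 0.98 (SE 0.66). On summed counts, the obese level was 5.82 times that of lean 1 and 2 together but 0.859 times that of lean 3.

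Igkc, the constant gene of the kappa light chain that pairs with any heavy-chain class, was counted 5, 15 and 76 times in lean 1, 2 and 3. Obese 1, 3 and 4 held 140, 146 and 155 counts. The levels were 0.594, 2.13 and 9.51 CPM in lean libraries and 16.4, 17.9 and 18.7 CPM in obese ones, without overlap. Means were 4.08 ± 4.77 and 17.7 ± 1.16 CPM (SD, n = 3 each), and the fitted log2 fold change was 2.11 (SE 0.59). The obese level was 13.6 times that of lean 1 and 2 together and 1.86 times that of lean 3.

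Jchain, whose product links IgM or IgA units in antibody-secreting cells, was scarce. Lean 1, 2 and 3 held 0, 5 and 17 counts of it and obese 1, 3 and 4 held 25, 31 and 22, or 2.93, 3.79 and 2.66 CPM in the obese tumors. Every obese library lay above lean 3, at 2.13 CPM, but the 95% Poisson interval of lean 3 (1.24 to 3.41 CPM) covered the levels of obese 1 and 4. The lean mean was 0.946 ± 1.08 CPM and the obese mean 3.13 ± 0.593 CPM (SD, n = 3 each), with a fitted log2 fold change of 1.71 (SE 0.73). The obese level was 9.65 times that of lean 1 and 2 together and 1.47 times that of lean 3.

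Of the 6 listed genes, 4 had every obese library above every lean library (Ighm, Ighg1, Igkc and Jchain), a pattern that 20.3% of all genes tested had. Of the 5 tested genes, Ighm, Ighg1 and Igkc were called higher, as were 10.3% of all genes tested, Jchain and Igha were not called, and 0 were called lower. Only Ighg1 was called with DESeq2, where 3099 of 14348 genes were called in either direction, 49% of them higher. Without lean 2, again only Ighg1 was called (1179 of 14748 genes, 48.1% higher). Without obese 1 (1461 of 14725, 48% higher) or obese 4 (1956 of 14780, 49.3% higher), Ighg1 and Ighm were called. All 5 of these genes were called without lean 3 (1541 of 14760, 50.7% higher). Without lean 1 (2624 of 14704, 49% higher) or obese 3 (3066 of 14720, 47.9% higher), Ighd passed the filter. It was called there beside Ighg1, Ighm and Igkc. Ighd was also tested with no filter, without lean 2 and without lean 3, and was not called there. Ighg1, at 0 counts in each lean library, passed the filter through the obese libraries alone, so its calls are no independent result. Because the genes were selected on this difference, nothing further is read from these counts. The median log2 fold change of the 5 tested genes was 2.11, also with Ighg1 at its lower bound, beside 0.01 over all genes tested.

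**Figure D2:**
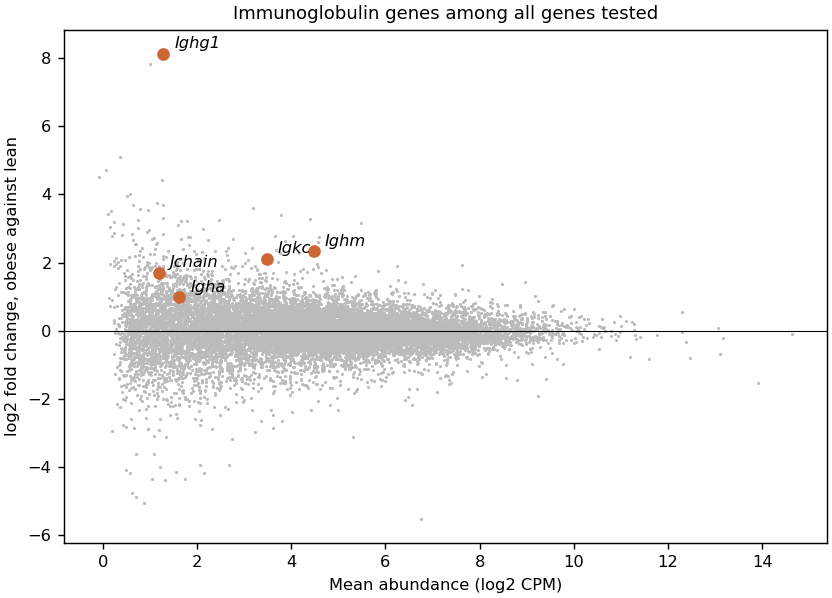
Fitted log2 fold change (obese against lean) against mean abundance (log2 CPM) for the genes tested, one point per gene, with the 5 tested immunoglobulin genes marked. Apart from Ighg1, their fitted values run from 0.98 for Igha to 2.33 for Ighm. That of Ighg1, 8.13 with 0 counts in the lean libraries, depends on the fit's prior count. The exact 95% interval of the Ighg1 ratio starts at 27.0-fold.

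The spread among lean tumors was wide for Ighm, Igkc, Igha and Jchain, and that among obese tumors was narrow for Ighm and Igkc. On the log2(CPM + 1) scale, the SD over the 3 lean libraries was 1.56 for Ighm, 1.38 for Igkc, 1.02 for Igha and 0.82 for Jchain, where the median gene had 0.18. Among all genes tested, 0.0348% had a larger lean SD than Ighm and 0.0976% a larger one than Igkc. Over the 3 obese libraries, the SD was 0.055 for Ighm and 0.090 for Igkc, with a median gene at 0.18. Of all genes tested, 91.8% and 81.1% had a larger one. The Poisson intervals of the 3 obese libraries overlapped for Ighm and for Igkc, so no difference beyond counting error was shown between these libraries. The comparisons with all genes were not matched for abundance, so the small obese SDs are not read as a trait of Ighm and Igkc. Igha had an SD of 0.40 and Jchain one of 0.20 in the obese group. Ighd had an SD of 0.25 in lean and 0.60 in obese libraries, and Ighg1, at 0 in each lean library, one of 0.097 in the obese group. Lean 3 was the highest lean library for Ighm, Igkc, Igha and Jchain, but not for Ighd, and none of the lean libraries had a count of Ighg1.

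The make-up of the heavy-chain counts was then compared within libraries, which does not depend on library scaling. Shares are of the summed counts of Ighm, Ighd, Ighg1 and Igha, without correction for transcript length, so they compare libraries and not genes. The sums were 18, 37 and 163 counts in lean 1, 2 and 3 and 415, 349 and 382 in obese 1, 3 and 4, which leaves the shares of lean 1 and 2 imprecise. All intervals below are exact (Clopper-Pearson) 95% intervals.

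Ighg1 made up 9.40% of the heavy-chain counts in obese 1 (6.77 to 12.6), 9.17% in obese 3 (6.36 to 12.7) and 9.69% in obese 4 (6.91 to 13.1). In lean 3 it made up 0 of 163 counts, which allows a share of up to 1.84% by the level of 3 counts, or 2.24% by the exact interval. At the share of the summed obese counts, 9.42%, lean 3 would have held 15.4 counts of Ighg1. For lean 2 the corresponding number was 3.49 and for lean 1 it was 1.70, with shares of up to 8.11% and 16.7% allowed by 3 counts (exact upper limits 9.49% and 18.5%). The limits of lean 3 lay below the intervals of the obese libraries, whereas those of lean 1 and 2 did not, so that at their depth a share like that of the obese tumors could have gone undetected. As Ighg1 was among the genes selected on this difference, its shares are a description.

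Igha made up 21.5% of the heavy-chain counts in lean 3 (15.4 to 28.6), above the 10.6% of obese 1 (7.81 to 13.97), the 8.31% of obese 3 (5.64 to 11.7) and the 5.50% of obese 4 (3.43 to 8.28). The interval of lean 3 lay clear of all obese intervals. Lean 1 had a share of 38.9% (17.3 to 64.3) on 7 counts, and lean 2 had 8.11% (1.70 to 21.9) on 3 counts. The share in lean 2 lay inside the obese range, so the groups overlapped, and the mean share was 22.8% ± 15.4 for lean and 8.14% ± 2.56 for obese hosts (SD, n = 3 each).

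The Ighm share lay between 76.9% and 91.9% in 5 libraries. It was 91.9% in lean 2 (78.1 to 98.3) and 78.5% in lean 3 (71.4 to 84.6), against 76.9% in obese 1 (72.5 to 80.8), 81.9% in obese 3 (77.5 to 85.8) and 81.4% in obese 4 (77.1 to 85.2). Lean 1 was lower, at 44.4% (21.5 to 69.2) on 8 counts. The mean shares, 71.6% ± 24.5 for lean and 80.1% ± 2.79 for obese hosts (SD, n = 3 each), differed by less than the lean spread. Ighd took 3.13% in obese 1, 0.573% in obese 3 and 3.40% in obese 4, beside 16.7% in lean 1 (3.58 to 41.4; 3 of 18 counts), 0 of 37 counts in lean 2 and 0 of 163 in lean 3. The highest share was thus that of lean 1, on 3 counts. The 0 in lean 3 allows a share of up to 1.84% by the level of 3 counts (exact upper limit 2.24%), above the value of obese 3.

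**Figure D3:**
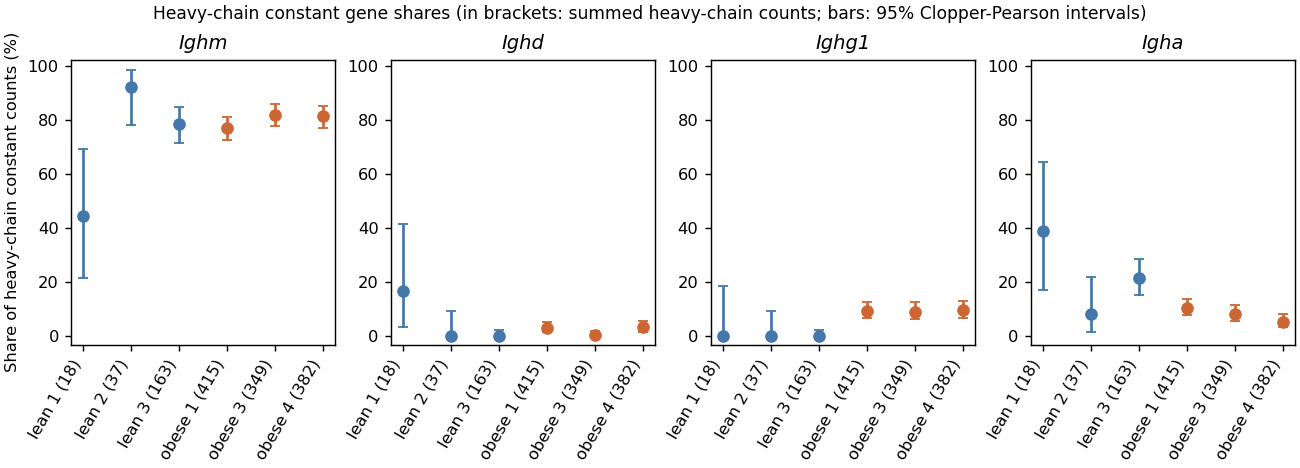
Share of Ighm, Ighd, Ighg1 and Igha in the heavy-chain constant counts (%) of each library, with 95% Clopper-Pearson intervals and the summed count in brackets. Ighg1 lies between 9.17% and 9.69% in obese libraries and at 0 in the lean ones, and Igha lies higher in lean 3 than in any obese library.

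The ratio of kappa light-chain to heavy-chain counts did not differ between libraries beyond counting error. Igkc counts per heavy-chain count were 0.278 in lean 1 (0.0806 to 0.776), 0.405 in lean 2 (0.207 to 0.757) and 0.466 in lean 3 (0.350 to 0.616). The ratios were 0.337 in obese 1 (0.277 to 0.410), 0.418 in obese 3 (0.342 to 0.509) and 0.406 in obese 4 (0.334 to 0.490). All 6 intervals overlapped, while the heavy-chain sums ran from 18 to 415 counts. That of lean 1, on 5 counts of Igkc, was too wide to show a departure. Igkc, Jchain and the heavy-chain genes were selected on the same difference, so similar ratios are a description. Jchain was measured against Ighm plus Igha, the classes its product joins. Its ratio was 0.135 in lean 2, 0.104 in lean 3, 0.0689 in obese 1, 0.0984 in obese 3 and 0.0663 in obese 4, and the intervals of these libraries overlapped. In lean 1, 0 counts of Jchain stood beside 15 of Ighm plus Igha, with an interval of up to 0.279 that includes the other ratios.

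**Figure D4:**
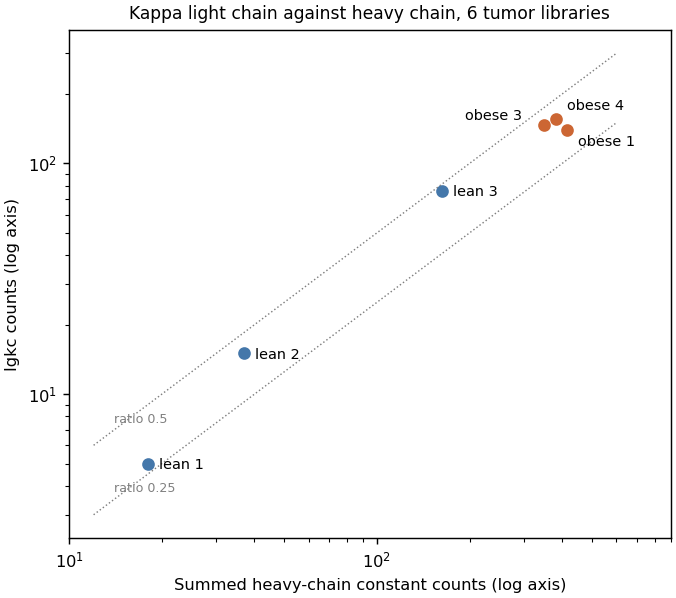
Igkc counts against the summed counts of the 4 listed heavy-chain constant genes in each library, both on log axes, with dotted lines at ratios of 0.25 and 0.5. All 6 libraries fall between the lines, at ratios of 0.278 to 0.466.

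The fitted fold changes of the listed genes were then compared between settings. Each of the 5 tested genes had a positive log2 fold change in all 11 alternatives, which changed the scaling, the filter, the test tool, the replicate term or the libraries included. As the genes were selected on this difference in the same libraries, the kept direction is a description. Leaving out lean 3 moved Ighm, Igkc, Jchain and Igha most: without it, the log2 fold change was 3.71 for Ighm, 3.73 for Igkc, 3.18 for Jchain and 2.52 for Igha. The fitted value of Ighg1 moved most with DESeq2, from 8.13 to 7.51, and was also 8.13 without lean 3. Without lean 1, that of Ighm was 1.79, that of Igkc 1.58 and that of Jchain 1.11, and without lean 2 that of Igha was 0.53. Without obese 1 the value of Igha was 0.68.

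**Figure D5:**
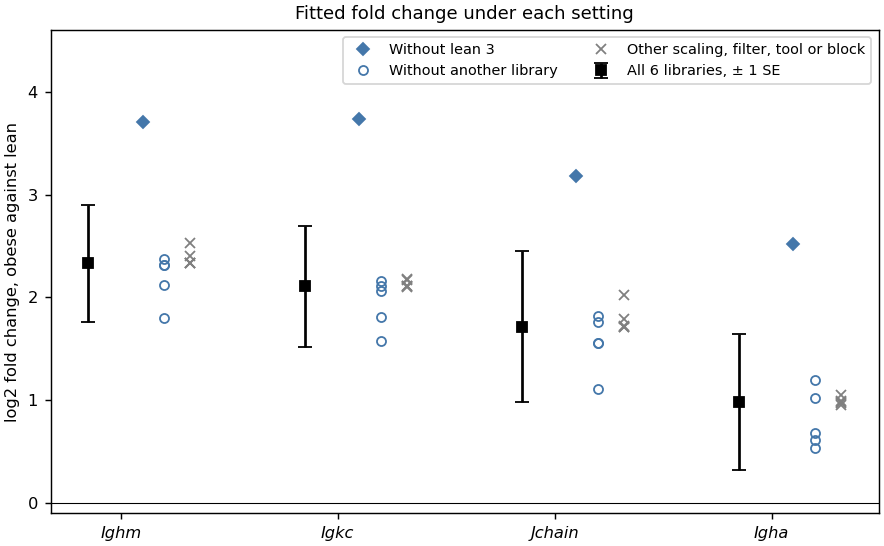
Fitted log2 fold change (obese against lean) of Ighm, Igkc, Jchain and Igha with all 6 libraries (squares, ± 1 SE), with 1 library left out (diamonds for lean 3, circles for the others) and under other settings (crosses). All points lie above 0, and leaving out lean 3 gives the highest value for each gene.

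Genes that followed the summed immunoglobulin level most closely over the 6 libraries were looked for among the other 14343 genes tested, by Pearson's r on the log2(CPM + 1) scale, as a description without a test. The highest were ENSMUSG00000054715.11 and ENSMUSG00000020441.6, for which the sources used here give no symbol. ENSMUSG00000054715.11 had 2.97, 4.40 and 7.63 CPM in lean 1, 2 and 3 and 10.6, 11.4 and 10.5 CPM in obese 1, 3 and 4. ENSMUSG00000020441.6 had 2.14, 3.12 and 5.26 CPM in the lean and 8.09, 7.59 and 7.48 CPM in the obese libraries. Both had the same order of lean libraries and the same narrow obese range as Ighm, over a smaller span. With 6 libraries in a lean and an obese cluster, any gene that differs by host can resemble this pattern, and 74 had an r of at least 0.95.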

How the data were processed

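Total RNA from 6 tumors, depleted of ribosomal RNA per the labels' protocols, was sequenced, so unspliced transcripts can be counted. The authors deposited raw counts per gene as 1 table. CASAVA, STAR and Subread with the build GRCm38 are named per the submitters' processing notes; the sources used here do not give versions, strand handling or the annotation. No listed gene sums to under 11 counts over all libraries, and a gene without an entry may have been removed as scarce by a rule the sources used here do not state.

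Titles starting with OB were taken as obese and those starting with ND as lean. Symbols came from the rule that defined the genes; the RefSeq table used here holds 0 Ensembl IDs, so this pairing was not checked and the planned lists of plasma cell, B cell, receptor and other genes, and of variable segments, could not be looked up. The members and lists were chosen with earlier results of these data known. All listed members are named, and the 2 genes most like them.

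The deposited counts went into edgeR 4.0.16 (R 4.3.3) with its default expression filter (minimum count 10, minimum total 15), TMM factors, quasi-likelihood F test, two-sided, Benjamini-Hochberg over 14348 genes. Standard errors (SE) of log2 fold changes were derived from the F statistic. The test was checked on simulated data. Alternatives were RLE factors, total counts, no filter, DESeq2 1.42.0, the replicate number as a block, and each library left out. No label names a batch. Any p-value weighs the group difference only against the spread between these samples within groups, and either may be technical.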

Additional observations from a re-analysis of the deposited data

How the results depend on the processing

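The direction of all 5 tested immunoglobulin genes was kept in 55 of 55 values over 11 alternatives. The alternatives reuse the libraries on which the genes were selected, so this is a description. For Ighm, Ighg1, Igkc and Jchain every obese library lay above every lean library, so leaving 1 out could not be expected to turn the sign. The number of members called higher, 3 with all libraries, was 1 with DESeq2 and 1 to 5 with 1 library left out (lowest without lean 2, highest without lean 3). Their median log2 fold change was 2.10 to 2.18 under other scaling, filters, tools and the block, and 1.58 to 3.71 with 1 library left out (lowest without lean 1, highest without lean 3). The count of genes called over the whole table, 2991, was 2903 to 3099 under other scaling, filters and tools, and 1179 to 3066 with 1 library left out: 1179 without lean 2, 1541 without lean 3, 1461 without obese 1 and 1956 without obese 4. The cause was not tested.

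The obese minus lean difference in the share of heavy-chain counts was 9.42 percentage points for Ighg1 (9.28 to 9.54 with 1 library left out), -14.7 for Igha (-22.0 without lean 2 to -6.65 without lean 1) and 8.46 for Ighm. For Ighm it ran from -5.13 without lean 1, where the sign turned, to 18.6 without lean 2, and was 1.95 on summed counts. Lean 1 has 18 heavy-chain counts and lean 2 has 37, which allow Ighg1 shares of up to 18.5% and 9.49%. With Ighg1 at 0 in each lean library, its share difference cannot change when a lean library is left out. The range given for Ighg1 thus reflects the obese libraries only. Ighg1's fitted value was 8.13 with edgeR, where it depends on the fit's prior count, and 7.51 with DESeq2. For a gene at 0 in a group, neither value is a measured ratio.

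Replicate numbers 1 and 3 occur in both groups. Like-numbered libraries' deviations correlated at 0.099 and 0.089, and nothing shows that a number pairs samples. With the replicate number as a block, the contrast rested on lean 1 and 3 against obese 1 and 3. Libraries whose number occurs in only 1 group did not inform it, so this setting did not use all the data. In this fit, 2087 genes and the same 3 members were called, at a median of 2.17. The list comparisons were not run, for want of symbols. Depth limits Ighd, Ighg1 and Jchain in lean tumors, where they reached at most 17 counts a library. It also limits Ighm, Igkc and Igha in lean 1, at 8, 5 and 7 counts, and Igkc and Igha in lean 2, at 15 and 3 counts.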
